A study of Mus musculus with 15 samples.

Results

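The genes described here encode enzymes of threonine, glycine and methionine metabolism: Tdh, Gldc, Gcat, Bhmt, Bhmt2, Mat2a, Ahcy and Dmgdh. They were chosen by name, with earlier results of these data known. Their signals were followed from mouse embryonic stem (ES) cells to sorted mesoderm made from such cells. Of the 8 genes, 5 had a probe set annotated to them alone (Gldc, Bhmt, Bhmt2, Ahcy and Dmgdh), out of 18193 genes with such a probe set. All 5 passed the filter on dim probe sets and are among the 12400 genes tested. No probe set carried the symbol Tdh or Mat2a in the annotation used here, so both are not analysed here. The 3 probe sets annotated to Gcat also carried the symbol Galr3, so no level is given for Gcat. Bhmt2 had 2 probe sets; the one with the higher mean over all arrays was used and the other served as a check.

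Threonine dehydrogenase (Tdh) and Gcat together turn threonine into glycine and acetyl-CoA, and mouse ES cells are known for their dependence on threonine. Glycine decarboxylase (Gldc) starts the mitochondrial glycine cleavage system, which releases a carbon unit from glycine onto folate. Mat2a makes S-adenosylmethionine, the methyl donor of the cell, from methionine; after a methyl group has been given away, Ahcy splits the remaining S-adenosylhomocysteine into adenosine and homocysteine. Bhmt turns homocysteine back into methionine with a methyl group from betaine, and its relative Bhmt2 does so with S-methylmethionine. Dimethylglycine, the product left from betaine, is oxidised to sarcosine by the mitochondrial enzyme Dmgdh. Bhmt is best known from liver and kidney.

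RNA was measured on 15 Affymetrix arrays, 1 per sample, in 5 groups of 3 biological replicates. The ES cells (day 0) were of line E14, strain 129P2, unsorted, kept with the inhibitors CHIRON99021 and PD0325901 (2i), LIF and serum on inactivated embryonic fibroblast feeders. The other 4 groups were differentiated without serum, first with 10 ng/ml BMP4 for 2 days. They then received 0.1 μM LDN193189 and 0.5% DMSO, together with 10 ng/ml Rspo3 (RDL medium) or, in its place, 1 μM CHIRON99021 (CDL medium). The treatment labels of some samples give the LDN compound other final digits. Day 4 cells were of line E14, strain 129P2, sorted as Msgn1repV+; Msgn1 marks presomitic mesoderm, the tissue that forms somites. Day 6 cells were of another line, CK35, strain 129Sv, sorted as Pax3GFP+; Pax3 marks the later, somite-forming stage. Line, strain, sort, medium and day all differ between ES and day 6 cells and cannot be told apart; between ES and day 4 cells, sort, medium and day cannot. The labels call the samples biological replicates without saying what was kept separate. The p-values thus set differences against the spread between these samples, which the main fit pooled over all 5 groups.

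The median signal of an array was 29.4 to 31.2 units, and 0 pairs of arrays were identical. Pluripotency genes checked the labels: all 7 of a list with Nanog and Pou5f1 were lower in each sorted group, and their summed signal was 20437 to 20692 in ES cells, 616 to 802 in RDL day 4, 228 to 297 in RDL day 6 and 537 to 747 in CDL day 6 cells. In CDL day 4 cells the sum was 6039 in replicate 1 against 1043 and 881 in its mates. Over 53 genes bright in ES cells (mean of at least 500) and dim in its mates (at most 50), chosen after seeing the data without the enzymes, that array stood above its mates by a median of 18.3% of the gap between its mates' mean and the ES mean (quartiles 16.6% and 22.0%). In the 9 arrays of the other sorted groups the same median lay between -0.196% and 0.238%. The array least like its own group was RDL day 6 replicate 1 (mean r of 0.978 with the 2 others). Enzyme calls that changed without these arrays are given with and without them. Presomitic markers were higher than in ES cells at day 4 in 6 of 6 tested genes in both media (summed signal 178 to 192 in ES, 5771 to 6338 in RDL, 5391 to 7119 in CDL). Of 5 tested somite markers, all were higher at day 6 in both media (263 to 302 in ES, 3368 to 5577 in RDL, 4969 to 7683 in CDL). Pax7 was dim throughout (group means of 14.7 to 24.6).

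Bhmt, Bhmt2 and Dmgdh lie next to one another on mouse chromosome 13, as 3 consecutive protein-coding genes in the RefSeq annotation. RefSeq promoter windows (GRCm38.p6, 250 bases before to 50 after each start) were found for 7 of the 8 genes, all except Tdh. Bhmt2 and Dmgdh start head to head on opposite strands with 133 bases between their starts, so both upstream windows share this stretch. It is shown, with the sequence upstream of Bhmt, because these neighbours fell together. The first line below is the minus strand, read 5′ to 3′ towards the start of Bhmt (chr13:93637759-93638008, GRCm38.p6). The second is the plus strand from the start of Bhmt2 towards that of Dmgdh (chr13:93674303-93674435, GRCm38.p6).
Bhmt, 250 bases upstream: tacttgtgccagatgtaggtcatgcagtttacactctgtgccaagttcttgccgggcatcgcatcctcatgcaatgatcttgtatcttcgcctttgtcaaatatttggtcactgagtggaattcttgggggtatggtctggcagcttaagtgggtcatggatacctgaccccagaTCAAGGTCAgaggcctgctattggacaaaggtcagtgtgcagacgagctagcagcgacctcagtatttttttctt
Bhmt2 to Dmgdh, 133 bases: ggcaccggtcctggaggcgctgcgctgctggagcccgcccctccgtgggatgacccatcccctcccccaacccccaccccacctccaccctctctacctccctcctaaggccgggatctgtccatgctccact
The capitals mark TCAAGGTCA, the sequence bound by the orphan nuclear receptor Esrrb, 75 to 67 bases before the start of Bhmt. Among 32851 RefSeq promoter windows of 300 bases, searched on both strands, 0.423% held this motif; among the 7 windows of these genes, that of Bhmt alone did. The Bhmt2 and Dmgdh windows held 26 and 25 CpG dinucleotides. These windows overlap over most of their length, so their counts share dinucleotides. Those of Mat2a and Gcat held 34 and 21, those of Ahcy and Gldc 13 and 10, and that of Bhmt 8, against a median of 7 over all windows. The 133 bases between the starts of Bhmt2 and Dmgdh were 69.9% G and C, with 6 CpG dinucleotides. Of the other motifs searched, the octamer (ATGCAAAT, in 1.74% of all windows), the STAT3 motif (TTCCNGGAA, 1.15%) and the TCF/LEF motifs (CTTTGATC or CTTTGTTC, 2.64%) were in 0 of the 7 windows. The E-box CACGTG (7.15% of all windows) was in that of Gcat. CCAAT (37.4%) was in those of Ahcy, Bhmt, Gldc and Mat2a, and TATAAA (13.6%) in that of Mat2a. A match is a description of the letters and not evidence of binding.

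Bhmt, the betaine-homocysteine methyltransferase, had a signal of 2353, 2406 and 2279 in the 3 ES arrays. It was 20.2, 22.8 and 20.2 in RDL day 4 cells, 17.3, 17.8 and 15.3 in RDL day 6 cells and 13.3, 16.9 and 14.8 in CDL day 6 cells. In CDL day 4 cells it was 407, 18.5 and 27.1. Every ES array lay far above every sorted array, and the only sorted array above its array's median signal was CDL day 4 replicate 1. In ES cells Bhmt ranked at the 97.8th to 97.9th percentile of its array; in the sorted arrays other than that one it ranked at the 26.5th to 47th percentile. No detection calls were used, so a signal that low was not separated from background, and the size of the fitted difference there depends on the constant added.

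Differences are given on the log2 scale of signal plus a constant of 12.6, and a gene is called where limma's p-value, adjusted over all 12400 genes by Benjamini-Hochberg, is under 0.05. On this scale Bhmt fell by 6.13 from ES to RDL day 4 cells (SE 0.62, adjusted p = 3.7e-07) and fell by 4.88 to CDL day 4 cells (adjusted p = 5.43e-06). It fell by 6.33 to RDL day 6 cells (adjusted p = 2.16e-07) and fell by 6.42 to CDL day 6 cells (adjusted p = 1.88e-07). Without replicate 1 of CDL day 4, the difference of that group from ES cells was -6.07, next to those of the other 3 groups. In a bulk sample, fewer cells of a type and less RNA per cell cannot be told apart.

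Bhmt2, the S-methylmethionine-homocysteine methyltransferase, had 403, 401 and 421 signal units in ES cells. RDL day 4 cells had 13.1, 15.9 and 18.5 units and CDL day 4 cells 98.4, 33.0 and 26.7. At day 6 the signal was 6.72, 6.90 and 7.07 in RDL and 6.60, 5.79 and 6.68 in CDL cells. Its signal was thus lower at day 4 than at day 0 and lower again at day 6, where it ranked at the 2.79th to 7.45th percentile of its array. In RDL cells it already ranked at the 26.2th to 37.2th percentile at day 4. There the difference from day 4 to day 6 was not called (-0.54, adjusted p = 0.12). The second probe set had the same order of days, with means of 300.4 ± 20.2 in ES, 19.6 ± 3.02 in RDL day 4, 46.8 ± 34.4 in CDL day 4, 7.50 ± 0.518 in RDL day 6 and 7.58 ± 0.666 in CDL day 6 cells (SD, n = 3). The probe set used carries the suffix that Affymetrix gives to sets whose probes may match several transcripts; cross-hybridisation between Bhmt and its close relative Bhmt2 was not tested. Against ES cells, Bhmt2 fell by 3.89 (SE 0.25, adjusted p = 2.55e-09) in RDL day 4 cells and fell by 2.85 (adjusted p = 1.03e-07) in CDL day 4 cells. It fell by 4.43 in RDL day 6 cells (adjusted p = 4.06e-10) and fell by 4.47 in CDL day 6 cells (adjusted p = 4.1e-10).

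Dmgdh, which oxidises dimethylglycine, had 533, 526 and 573 units in ES cells, at the 90.2th to 90.8th percentile of the arrays. At day 4 it had 45.5, 60.1 and 59.0 in RDL cells and 153, 84.3 and 67.2 in CDL cells. At day 6 it had 20.7, 17.6 and 14.0 in RDL cells and 21.6, 23.7 and 17.6 in CDL cells. Every day 4 array lay below every ES array and above every day 6 array. Against ES cells Dmgdh fell by 3.05 (SE 0.20, adjusted p = 2.4e-09) in RDL and fell by 2.36 (adjusted p = 5.4e-08) in CDL cells at day 4. At day 6 it fell by 4.22 (adjusted p = 4.39e-11) in RDL and fell by 4.06 (adjusted p = 7.16e-11) in CDL cells.

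Gldc, the decarboxylase of the glycine cleavage system, had 919, 900 and 979 units in ES cells. It had 259, 282 and 270 in RDL day 4 cells and 584, 513 and 436 in CDL day 4 cells, with no overlap between the media. Day 6 values were 71.7, 141 and 118 in RDL and 136, 206 and 133 in CDL cells, all below every day 4 array. Unlike Bhmt and Bhmt2, Gldc stayed above the array medians in all sorted arrays, at the 67.5th to 81.1th percentile at day 6. The order of group means was ES (932 ± 40.9), CDL day 4 (511 ± 74.2), RDL day 4 (271 ± 11.4), CDL day 6 (158 ± 41.3) and RDL day 6 (110 ± 35.5; SD, n = 3 each), and only the last pair of neighbours overlapped. Against ES cells it fell by 1.74 (SE 0.19, adjusted p = 1.17e-06) in RDL day 4 and fell by 0.86 (adjusted p = 0.00127) in CDL day 4 cells. At day 6 it fell by 2.99 (adjusted p = 1.86e-09) in RDL and fell by 2.49 (adjusted p = 1.58e-08) in CDL cells.

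Ahcy, which clears S-adenosylhomocysteine, was bright in all samples and moved least of the 5 enzymes. It had 5909, 5906 and 6128 units in ES cells and 4481, 4304 and 4409 in RDL day 4 cells. The other values were 4895, 4197 and 4019 in CDL day 4, 4432, 3473 and 3529 in RDL day 6 and 4201, 4014 and 4289 in CDL day 6 cells. All sorted arrays lay below all ES arrays, while the 4 sorted groups overlapped one another in most pairs. Its group means in sorted cells were 63.7% to 73.5% of the ES mean, and it stayed at or above the 98.7th percentile of every array. Against ES cells it fell by 0.44 (SE 0.086, adjusted p = 0.000368) and 0.46 (adjusted p = 0.000297) in RDL and CDL at day 4. At day 6 the fall was 0.66 (adjusted p = 6.38e-06) in RDL and 0.52 (adjusted p = 7.23e-05) in CDL cells.

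**Figure D1:**
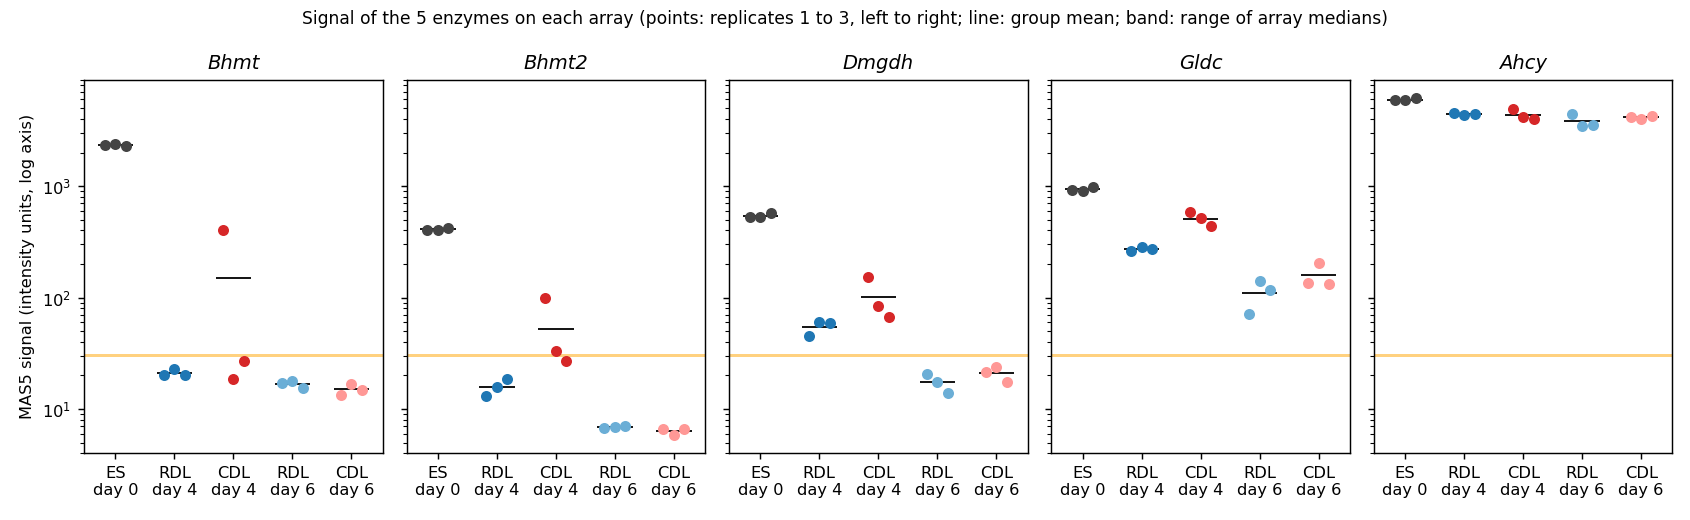
Deposited signal (log axis) of the 5 measured enzymes in each of the 15 arrays; points are replicates 1 to 3 of a group from left to right, the black line is the group mean, and the band is the range of array medians (29.4 to 31.2). ES cells are highest for every enzyme; Bhmt and Bhmt2 lie below the band in RDL day 4 and, with Dmgdh, in all day 6 arrays, Gldc stays above it and Ahcy stays near the top, while CDL day 4 replicate 1 (left red point) is the highest of its group in each panel.

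The 5 measured enzymes were therefore all lower than in ES cells in each sorted group, without overlap. In RDL day 4 cells 5 of 5 were called lower and 0 higher, where 29.5% of all tested genes were called lower and 27.6% higher. In CDL day 4 cells it was again 5 of 5, against a background of 29.6% lower and 26.6% higher. At day 6 all 5 were lower in both media, with a background of 33.3% lower and 28.3% higher in RDL and 33.3% lower and 27.8% higher in CDL cells. The median difference over the 5 was -3.05, -2.36, -4.22 and -4.06 in RDL day 4, CDL day 4, RDL day 6 and CDL day 6 cells; over all genes it was -0.01, -0.02, -0.04 and -0.02. The enzymes were chosen with earlier results of these data known, so these counts and medians are descriptions. These 4 comparisons share the 3 ES samples. The filter kept genes above the array median in at least 3 arrays, and Bhmt and Bhmt2 passed it only because of the ES arrays. Among sorted arrays, only some of CDL day 4 lay above their medians for these genes. In RDL day 4 cells and both day 6 groups, lower was therefore the only likely call for Bhmt and Bhmt2. Their calls there add little to the counts.

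**Figure D2:**
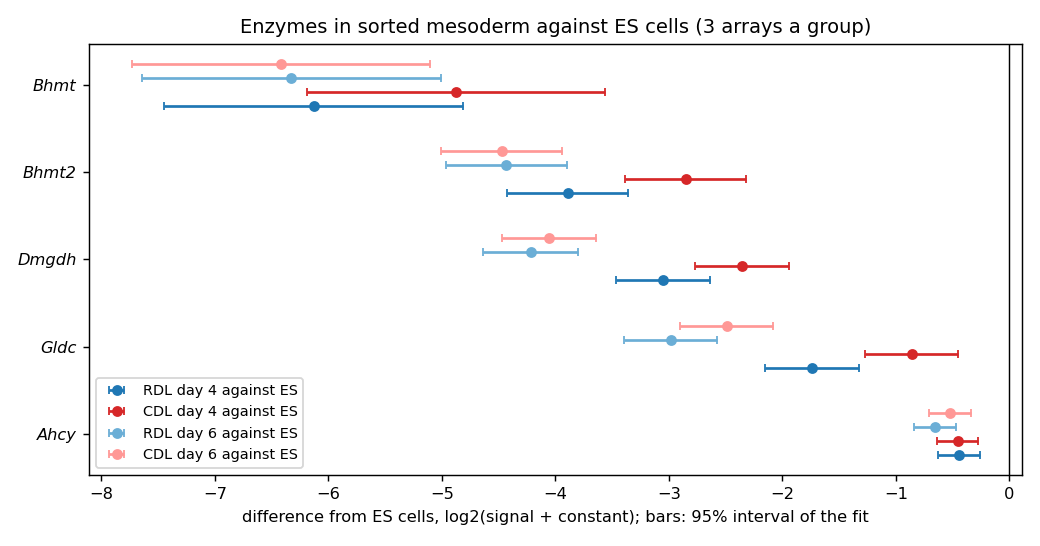
Difference of each sorted group from ES cells (horizontal axis, log2 of signal plus a constant) for the 5 enzymes, with the 95% interval of the fit across 15 arrays. The differences run from -6.42 for Bhmt in CDL day 6 cells to -0.44 for Ahcy in RDL day 4 cells, and no interval reaches 0.

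The array of CDL day 4 replicate 1 bears on the values of that group. Its excess over its mates, as a share of the gap between the mates' mean and the ES mean, was 16.5% for Bhmt, 16.6% for Dmgdh, 18.1% for Bhmt2 and 23.9% for Gldc, beside the median of 18.3% over the 53 ES genes. For Ahcy, whose mates lay close to the ES level (4108 against 5981 units), it was 42.0%. Without this array, CDL day 4 cells differed from ES cells by -3.31 for Bhmt2, -2.66 for Dmgdh, -0.96 for Gldc and -0.54 for Ahcy. Feeder fibroblasts, on which the ES cells had been kept, gave little signal in ES cells: the summed signal of 7 fibroblast genes was 179 to 200 there, against 690 to 784 in RDL day 4, 816 to 1034 in CDL day 4, 7738 to 10086 in RDL day 6 and 5192 to 7064 in CDL day 6 cells. Of these genes, 4, 3, 6 and 5 were higher than in ES cells in those groups, in that order, and 1 was lower in RDL day 6 cells; Col3a1, also a gene of mesenchyme, led with 6794 units on average in RDL day 6 cells. Their part in the enzyme values was not tested. A list of 7 liver and endoderm genes summed to 160 to 175 in ES cells and to at most 321 in any array (RDL day 6), with Alb and Afp at group means of 14.3 to 23.3 throughout. Of its 4 tested genes, 1 was higher at day 4 and 2 at day 6 in each medium. Of 3 tested neural genes, Tubb3 was lower in all sorted groups (341 units on average in ES cells, 15.4 to 33.3 in the others), and Pax6 was higher in RDL day 6 cells (0.25, adjusted p = 0.0447). Tubb3, like Bhmt and Bhmt2, passed the filter only because of the ES arrays. The neural sum was 351 to 520 in ES cells and 97.9 to 144 in sorted cells.

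From day 4 to day 6 the levels of Gldc and Dmgdh went down further in both media. In RDL cells 2 of the 5 enzymes were called lower and 0 higher, where 17.2% of all genes were lower and 13.8% higher. Gldc fell by 1.25 (SE 0.19, adjusted p = 0.000135) and Dmgdh fell by 1.17 (SE 0.20, adjusted p = 0.000274). For Bhmt2 the difference was -0.54 (adjusted p = 0.12) although the groups did not overlap, for Ahcy -0.21 (adjusted p = 0.0727) and for Bhmt -0.20 (adjusted p = 0.848). Without CDL day 4 replicate 1, whose spread enters the common fit, Bhmt2 was past the threshold (-0.54, adjusted p = 8.96e-05), as was Ahcy (-0.21, adjusted p = 0.047). With the replicate number as a block, which same-numbered RDL samples share, Ahcy was also past it (adjusted p = 0.04), and without RDL day 6 replicate 1 its difference was -0.33 (adjusted p = 0.00217).

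In CDL cells 3 of 5 were called lower from day 4 to day 6 and 0 higher, against 22% of all genes lower and 17.4% higher. Dmgdh fell by 1.70 (SE 0.20, adjusted p = 4.82e-06), Gldc fell by 1.63 (SE 0.19, adjusted p = 6.95e-06) and Bhmt2 fell by 1.62 (SE 0.25, adjusted p = 9.91e-05). For Bhmt the difference was -1.54 (SE 0.62, adjusted p = 0.0595), and for Ahcy -0.06 (adjusted p = 0.59, groups overlapping). Without CDL day 4 replicate 1 the difference of Bhmt was -0.35 (adjusted p = 0.0225), that of Bhmt2 -1.16 (adjusted p = 7.81e-08), that of Dmgdh -1.40 and that of Gldc -1.53. Line, strain and reporter change with the day in both comparisons and cannot be told apart from it.

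At day 4, with line, day and sort the same, CDL cells had more Gldc and Bhmt2 signal than RDL cells. The groups also differed in markers. Of 5 tested somite genes, 4 were lower in CDL cells and 0 higher (summed signal of the list 1109 to 1743 against 3102 to 3320 in RDL). Of 7 pluripotency genes, 1 was higher, Pou5f1 (1.62, adjusted p = 0.00448), and 0 lower. The part of these differences in the enzyme values was not tested. Of the 5 enzymes 2 were called higher and 0 lower, where 2.9% of all genes were higher and 1.52% lower. Gldc was higher by 0.88 (95% interval 0.47 to 1.29, adjusted p = 0.0148), in 3 of 3 CDL arrays above all RDL arrays. Bhmt2 was higher by 1.04 (0.51 to 1.58, adjusted p = 0.0251), again without overlap, and Dmgdh had a difference of 0.70 (0.28 to 1.11, adjusted p = 0.0594) without overlap. Most of these Bhmt2 signals were dim. The RDL arrays ranked at the 26.2th to 37.2th percentile, and CDL replicates 2 and 3 at the 52th and 46.6th. The groups overlapped for Bhmt (1.25, interval -0.06 to 2.57, adjusted p = 0.369) and Ahcy (-0.01, interval -0.20 to 0.17, adjusted p = 0.971).

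These differences were smaller without CDL day 4 replicate 1: Bhmt2 differed by 0.58 (adjusted p = 0.00136), Gldc by 0.78 (adjusted p = 0.0655), Dmgdh by 0.39 (adjusted p = 0.18) and Bhmt by 0.06 (adjusted p = 0.918). Leaving out RDL day 6 replicate 1 as well, Gldc (0.78, adjusted p = 0.00452) and Bhmt2 (0.58, adjusted p = 0.00123) were both called, and Dmgdh was not (0.39, adjusted p = 0.0992). The call of Gldc was also lost without RDL day 4 replicate 1 (adjusted p = 0.0627) or 3 (0.0506) or CDL day 4 replicate 2 (0.0523). That of Bhmt2 was lost without RDL day 4 replicate 1 (0.104), 2 (0.0819) or 3 (0.0546), and with its second probe set (0.74, adjusted p = 0.139). Dmgdh was called without CDL day 4 replicate 3 (0.92, adjusted p = 0.00824) and without RDL day 6 replicate 1 (0.70, adjusted p = 0.0456).

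At day 6 none of the 5 enzymes was called between the media by limma (0 higher and 0 lower; background 3.68% higher and 3.94% lower); the unadjusted p was under 0.05 for Gldc alone. Its difference was 0.49 (95% interval 0.08 to 0.91, adjusted p = 0.157), with overlapping groups. Ahcy differed by 0.14 (-0.05 to 0.32, adjusted p = 0.445), and by 0.25 (adjusted p = 0.0286) without RDL day 6 replicate 1, whose value of 4432 was the highest of its group. Dmgdh differed by 0.16 (-0.25 to 0.58, adjusted p = 0.742), Bhmt2 by -0.04 (-0.57 to 0.49, adjusted p = 0.966) and Bhmt by -0.09 (-1.41 to 1.22, adjusted p = 0.968). The wide interval of Bhmt comes from a spread pooled over all 5 groups, CDL day 4 included. The SD of its log2 values was 2.07 in CDL day 4, 0.065 in RDL day 6 and 0.094 in CDL day 6 cells. For Bhmt, Bhmt2 and Dmgdh, signals below the array medians leave little room to show a difference.

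**Figure D3:**
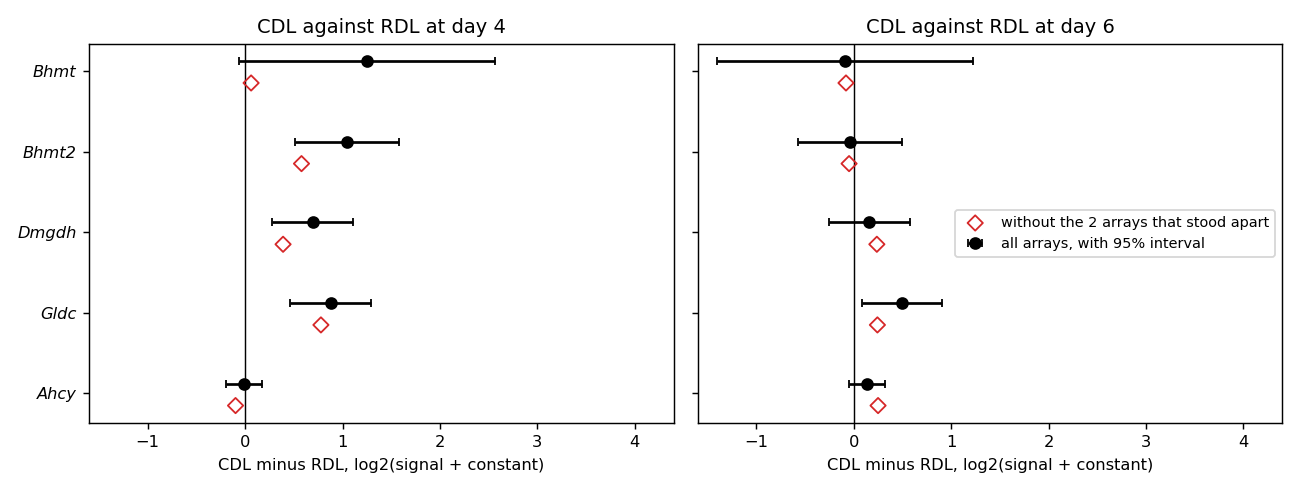
CDL minus RDL difference (horizontal axis, log2 of signal plus a constant) of each enzyme at day 4 (left) and day 6 (right); black points with 95% intervals are from all 15 arrays, open diamonds leave out the arrays that stood apart (CDL day 4 replicate 1; RDL day 6 replicate 1). At day 4 the diamond of Bhmt lies at 0.06 against 1.25 with all arrays, that of Bhmt2 at 0.58 against 1.04 and that of Gldc at 0.78 against 0.88.

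Whether the difference between the media changed with the day was tested directly, as an interaction. None of the 5 enzymes passed (0 higher and 0 lower by limma, background 2.31% higher and 3.08% lower), and the unadjusted p was under 0.05 for Bhmt2 alone. The CDL minus RDL difference at day 6 minus that at day 4 was -1.08 for Bhmt2 (95% interval -1.84 to -0.33, adjusted p = 0.104), -1.35 for Bhmt (adjusted p = 0.514), -0.53 for Dmgdh (adjusted p = 0.379), -0.38 for Gldc (adjusted p = 0.562) and 0.15 for Ahcy (adjusted p = 0.625). Bhmt2 was called without CDL day 4 replicate 1 (-0.62, adjusted p = 0.0063) or replicate 3 (-1.37, adjusted p = 0.0189). Without both arrays that stood apart, Ahcy was called too (0.35, adjusted p = 0.00947).

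The measured genes on either side of Bhmt, Bhmt2 and Dmgdh were not called lower in sorted cells. Of the 3 protein-coding genes on each side in the RefSeq order (Homer1, Jmy and Gm6109; Arsb, Lhfpl2 and Scamp1), all except Gm6109 had a probe set, and 0 of these 5 were called lower than in ES cells in any sorted group. Gm6109, which was not measured, is the gene next to Bhmt. Beyond it, Jmy differed from ES cells by 0.31, 0.21, -0.16 and 0.09 in RDL day 4, CDL day 4, RDL day 6 and CDL day 6 cells. Homer1 differed by 0.20, 0.18, 0.13 and 0.08, and neither was called. Next to Dmgdh, Arsb was called higher in CDL day 4 cells (0.69, adjusted p = 0.000639) and in no other group. Lhfpl2 rose in all 4 groups, by 1.62, 0.57, 1.25 and 1.70, and Scamp1 by 0.28, 0.33, 0.41 and 0.63.

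**Figure D4:**
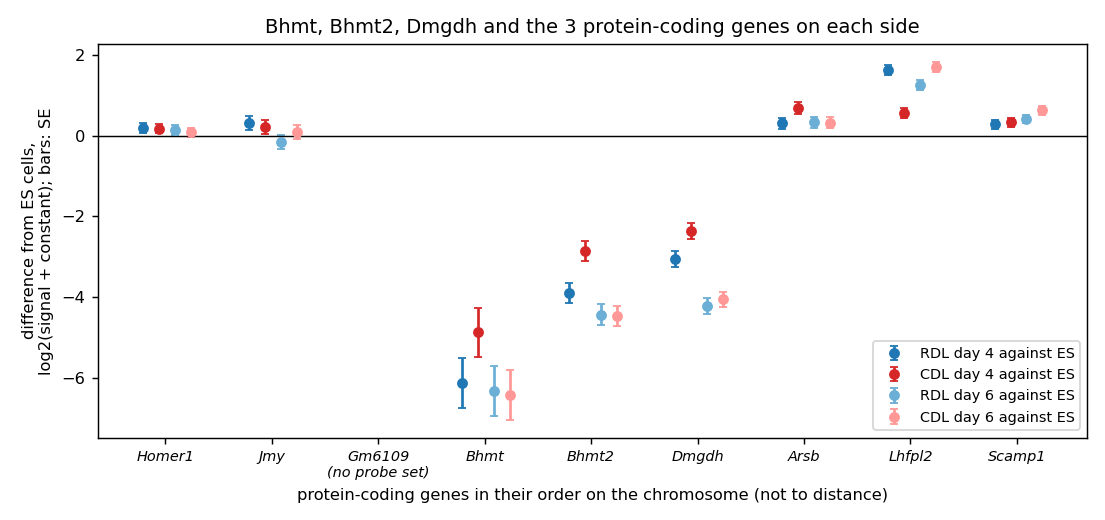
Difference from ES cells (vertical axis, log2 of signal plus a constant; bars are the SE of the fit) for Bhmt, Bhmt2, Dmgdh and the 3 protein-coding genes on each side, in chromosome order and not to distance; colours are the 4 sorted groups. The 3 enzymes lie between -2.36 and -6.42, while the measured neighbours lie between -0.16 and 1.70.

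Across the 15 arrays, the log2 signals of the neighbours Bhmt2 and Dmgdh correlated with r = 0.986, those of Bhmt and Bhmt2 with r = 0.981 and those of Bhmt and Dmgdh with r = 0.945. Gldc followed Dmgdh with r = 0.94 and Bhmt with r = 0.824. Ahcy correlated with the other 4 at 0.77 to 0.913. All arrays share the step from ES to sorted cells, which by itself gives a high r, so these values are descriptions. The tested genes most like Bhmt were Mageb16 (r = 0.9992), Nr0b1 (0.9984) and Zfp936 (0.9977). Mageb16 had group means of 1971 in ES, 19.3 in RDL day 4, 139 in CDL day 4, 19.9 in RDL day 6 and 15.3 in CDL day 6 cells, including the raised mean of the CDL day 4 group. Closest to Bhmt2 were Dmtn (0.9953), Pla2g1b (0.9952) and Ak4 (0.9952), and closest to Dmgdh were Il6ra (0.9974), Usp17la (0.9965) and Pycard (0.9964). Gldc was most like Epop (0.9868), Dhrs11 (0.985) and Alpl (0.9848); Alpl, the tissue-nonspecific alkaline phosphatase long used to stain ES cells, had means of 741, 183, 341, 35.8 and 53.4 in ES, RDL day 4, CDL day 4, RDL day 6 and CDL day 6 cells. Ahcy was most like Tfrc, the transferrin receptor (0.9765), Fig4 (0.968) and Ide (0.9673).

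The other enzymes and carriers of these pathways were described from 9 lists of 78 genes, of which 61 were tested. The lists, too, were written with earlier results of these data known. Of the 61, 19 were higher and 26 lower than in ES cells in RDL day 4, 15 and 24 in CDL day 4, 12 and 32 in RDL day 6, and 16 and 28 in CDL day 6 cells. Of all tested genes, 26.6% to 28.3% were higher and 29.5% to 33.3% lower in these comparisons, so the counts of higher genes lay near or below that background and those of lower genes above it. Their median differences were -0.07, 0.02, -0.33 and -0.18 in the same order; no test set the lists apart from other genes.

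Around Ahcy, Bhmt and Bhmt2, the methionine cycle list (7 tested) had 2 genes higher and 3 lower in RDL day 4 cells, 2 and 2 in CDL day 4, and 2 and 3 in both day 6 groups. Mtr, the folate-dependent methionine synthase that works in parallel to Bhmt, fell by 0.72 (adjusted p = 9.35e-05) in RDL day 4 cells, from 323 to 191 units on average. Its reactivating enzyme Mtrr fell by 1.11 (adjusted p = 0.000102). Adk, the kinase that removes the adenosine made by Ahcy, rose by 1.10 (adjusted p = 2.06e-05), from 1085 to 2340 units. Mtr and Mtrr were lower and Adk higher in all 4 sorted groups. Mat1a, the liver form of the enzyme that makes S-adenosylmethionine, was too dim to be tested (group means of 7.25 to 11.5).

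The transsulfuration list, which drains homocysteine towards cysteine and taurine, had 4 of 5 genes lower and 0 higher in each of the 4 sorted groups, where 29.5% to 33.3% of all genes were lower. The counts were the same without the 2 arrays that stood apart. In RDL day 4 cells cysteine dioxygenase Cdo1 fell by 2.74 (adjusted p = 8.7e-08), cystathionine beta-synthase Cbs fell by 2.69 (adjusted p = 2.23e-08) and cystathionine gamma-lyase Cth fell by 2.06 (adjusted p = 2.12e-07). Cbs had 239 to 280 units in ES cells and 28.6 to 31.9 in RDL day 4 cells. The median of the list was -2.06, -2.02, -2.33 and -1.84 in RDL day 4, CDL day 4, RDL day 6 and CDL day 6 cells. In the methionine salvage and polyamine list (8 tested), 3 genes were higher and 4 lower in RDL day 4, and 0 and 3 in CDL day 4 cells. At day 6 it was 1 and 5 in RDL and 1 and 6 in CDL cells. The polyamine acetyltransferase Sat1 fell most, by 1.14 (adjusted p = 5.33e-07) in RDL day 4 and fell by 2.16 (adjusted p = 2.77e-10) in RDL day 6 cells.

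The partners of Gldc moved in both directions. In the glycine cleavage and lipoylation list (5 tested) 2 genes were higher and 3 lower at day 4 in both media, and 1 and 3 at day 6. Gcsh, the carrier protein on which Gldc acts, fell by 0.22 (adjusted p = 0.0062) in RDL day 4 cells, from 4096 to 3527 units on average, where Gldc fell by 1.74. Dld, the dehydrogenase shared with other complexes, rose by 0.66 (adjusted p = 0.000863). The lipoylation enzymes Lipt1 and Lias fell by 0.77 (adjusted p = 2e-05) and 0.55 (adjusted p = 3.92e-05). In CDL day 4 cells Lipt1 fell by 0.95 (adjusted p = 2.56e-06), next to a fall of Gldc by 0.86. The difference between Gldc and these genes was not tested.

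Serine and glycine synthesis (5 tested) was mixed against ES cells: 2 higher and 2 lower at day 4 in both media, 1 and 3 in RDL day 6 and 2 and 1 in CDL day 6 cells. Phgdh, the first enzyme of serine synthesis, rose by 0.83 (adjusted p = 2.32e-08) in RDL day 4 cells, and cytosolic Shmt1, which interconverts serine and glycine, fell by 1.33 (adjusted p = 3.52e-07). In the folate cycle (12 tested) 4 genes were higher and 6 lower in RDL day 4, 2 and 6 in CDL day 4, 1 and 7 in RDL day 6, and 3 and 5 in CDL day 6 cells. The folate receptor Folr1 fell by 3.89 (adjusted p = 3.76e-07) in RDL day 4 cells, from 646 to 717 units in ES cells to 31.8 to 36.4. The mitochondrial enzyme Mthfd2l rose by 2.64 (adjusted p = 1.02e-09) in RDL day 4 and by 3.48 (adjusted p = 3.12e-11) in RDL day 6 cells.

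Upstream and downstream of Bhmt and Dmgdh, the choline, betaine and sarcosine list (8 tested) had 2 genes higher and 2 lower at day 4 in both media, 1 and 3 in RDL day 6, and 2 and 3 in CDL day 6 cells. Pipox, the peroxisomal sarcosine oxidase, fell by 2.99 (adjusted p = 2.13e-08) in RDL day 4 cells, from 166 to 206 units in ES cells to 11.3 to 12.8. The choline transporter Slc44a1 fell by 1.57 (adjusted p = 5.93e-08). Like Bhmt and Bhmt2, Pipox passed the filter only because of the ES arrays. Its highest signal was 12.8 in RDL day 4, 14.7 in RDL day 6 and 17.7 in CDL day 6 cells. Lower was therefore the only likely call for Pipox in these groups, and it adds little to the counts. Chdh, which starts the conversion of choline to betaine, was too dim to be tested (group means of 6.33 to 7.01). Among amino acid transporters (8 tested) 4 were higher and 1 lower in RDL day 4, 5 and 1 in CDL day 4, 4 and 3 in RDL day 6, and 4 and 2 in CDL day 6 cells. The neutral amino acid transporter Slc38a1 rose by 1.48 (adjusted p = 3.4e-07) and Slc1a5 fell by 0.98 (adjusted p = 1.58e-06) in RDL day 4 cells. Of 3 tested genes of threonine and serine catabolism, Alas1, which uses glycine to start haem synthesis, was lower in all 4 groups (by 0.72, adjusted p = 0.000229, in RDL day 4 cells), and the serine racemase Srr was higher at day 6 (0.67, adjusted p = 0.000789, in RDL cells).

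From day 4 to day 6, 4 of the 61 genes were higher and 19 lower in RDL cells, and 11 and 17 in CDL cells; of all genes, 13.8% were higher and 17.2% lower in RDL, and 17.4% and 22% in CDL cells. Cth fell by 1.61 (adjusted p = 1.19e-05) in RDL cells, and the transporter Slc7a5 fell by 1.52 (adjusted p = 0.000221) in RDL and by 0.89 (adjusted p = 0.0102) in CDL cells. The 3 serine synthesis enzymes Psph, Phgdh and Psat1 rose in CDL cells by 0.63, 0.40 and 0.34 (adjusted p = 0.0123, 0.000186 and 0.00927).

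Between the media, most calls among these genes were at day 6. At day 4, where Gldc and Bhmt2 were called, 1 of the 61 was higher in CDL, the transporter Slc1a4 (0.43, adjusted p = 0.0265), and 0 were lower. The media groups also differed in markers at day 6. In CDL cells 4 of 7 tested fibroblast genes were lower and 0 higher. Of somite genes 2 of 5 were higher, of presomitic genes 2 of 6 and of pluripotency genes 1 of 7, with 0 lower in each. Of liver and endoderm genes 1 of 4 was lower, and of neural genes 0 of 3 were called. The part of these differences in the pathway values was not tested. At day 6, where none of the 5 enzymes was called, 13 of the 61 were higher in CDL and 0 lower, beside the background of 3.68% and 3.94% of all genes. They included 4 of 5 genes of serine and glycine synthesis, among them Psph (0.75, adjusted p = 0.0157), Shmt2 (0.63, adjusted p = 0.0188) and Psat1 (0.45, adjusted p = 0.00618). They also included 4 of 12 of the folate cycle, among them Aldh1l2 (1.09, adjusted p = 3.46e-07), Aldh1l1 (0.93, adjusted p = 5.32e-05) and the mitochondrial Mthfd2. Cth had the largest difference, 1.83 (SE 0.20, adjusted p = 1.81e-05): 138 to 208 units in RDL and 486 to 748 in CDL day 6 cells. Leaving out 1 array at a time gave 7 to 13 higher and 0 to 2 lower genes: 7 and 2 without CDL day 6 replicate 1, 7 and 0 without replicate 3, and 8 and 0 without RDL day 6 replicate 2. A fit of the 2 groups alone gave 3 higher and 1 lower, and the fit without the 2 arrays that stood apart gave 13 and 2. In the interaction 7 of the 61 were higher and 0 lower, led by Cth (1.79), Psph (1.23) and Aldh1l2 (1.20).

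**Figure D5:**
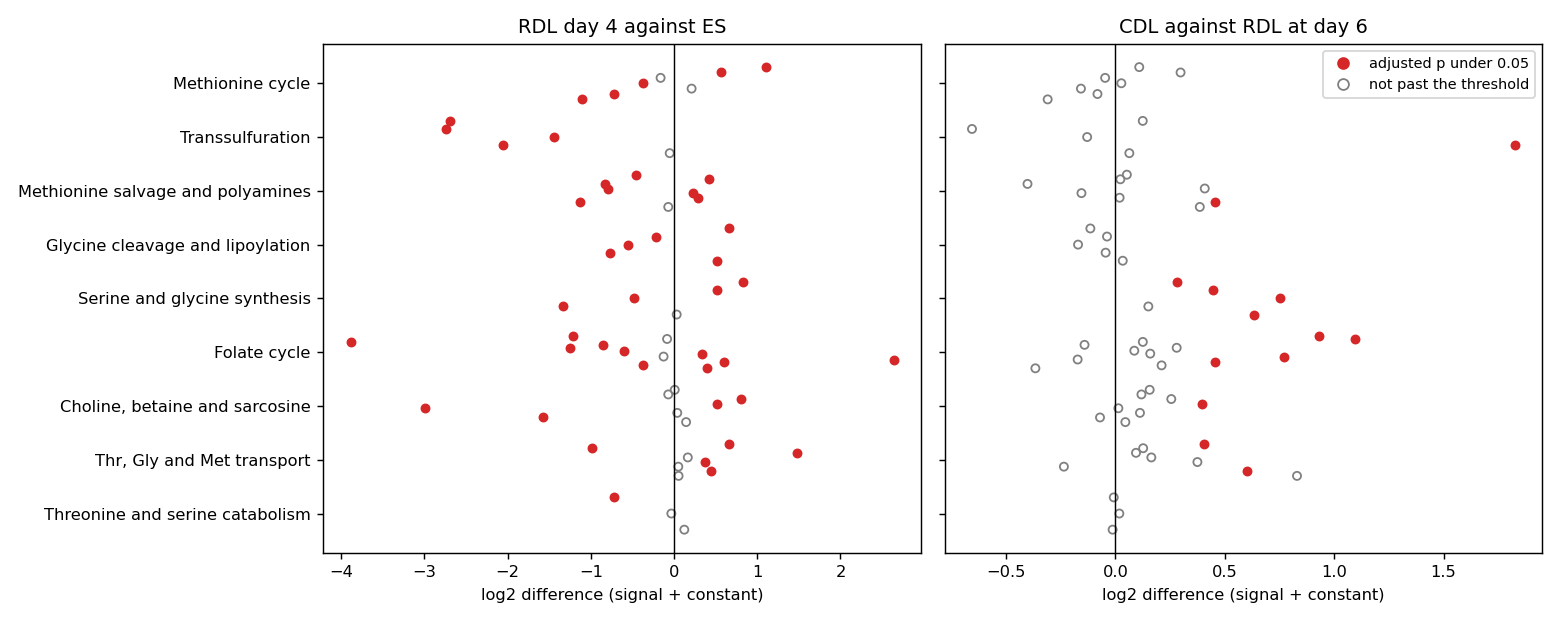
Log2 difference (horizontal axis, signal plus a constant) of each of the 61 other pathway genes tested, by list, in RDL day 4 cells against ES cells (left) and in CDL against RDL cells at day 6 (right); filled points have an adjusted p under 0.05. Left, the 4 filled transsulfuration genes lie between -2.74 and -1.44, while most lists lie on both sides of 0; right, all 13 filled genes are above 0, with Cth at 1.83.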

How the data were processed

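Signals were used as deposited: per the submitters' processing notes the authors made these intensity values, on a linear scale, with MAS5 (version, scaling, detection calls and build not given in the sources used here). Of 45037 probe sets without controls, GEO's platform annotation gave 34945 exactly 1 symbol, 932 several and 9160 none. Each gene took its brightest single-symbol probe set, tested if it exceeded the 50th percentile of at least 3 arrays. The deposited intensities were put on a log2 scale after adding 12.6 (each array's 25th percentile, median taken across arrays), which shrinks differences of dim genes.

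One limma 3.58.1 fit (R 4.3.3; 5 group means, 15 arrays, eBayes with trend) gave 9 comparisons, each Benjamini-Hochberg adjusted over 12400 genes; the script was tested on simulated data. The number of arrays limits the precision. The enzymes, lists and markers were chosen with earlier results of these data known. Named genes are the 8 enzymes, chromosome neighbours, the 3 most correlated genes, up to 3 called genes of largest difference per list and comparison, and markers; Gcsh, Mat1a and Chdh were added after their values were seen. Replicate numbers were taken as pairing samples where every same-number correlation of deviations passed 0.1. Of the pairs compared this held for RDL day 4 with RDL day 6 (0.219 to 0.285). The main fit used no replicate block for any comparison, this one included, and a block was tried only as an alternative. Between the media the correlations were 0.096 to 0.244 at day 4 and -0.241 to 0.609 at day 6. Alternatives (25 planned, 2 added after seeing the data) changed the constant, filter, scaling, probe set rule, samples and block. Promoter sequences are from RefSeq (GRCm38.p6).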

Additional observations from a re-analysis of the deposited data

How the results depend on the processing

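All 524 alternative values of the 5 enzymes against ES cells kept their direction and call, and 1146 of 1179 did so over all comparisons; no called value changed sign. With the 2 arrays that stood apart left out, 4 enzymes were called from day 4 to day 6 in RDL (Bhmt2 -0.53, Ahcy -0.33), Bhmt differed by -0.35 in CDL, Ahcy was called at day 6 between media (0.25; 1 enzyme), and 2 enzymes were called in the interaction (Bhmt2 -0.63, Ahcy 0.35). A constant of 1 gave calls of -1.08 for Bhmt2 from day 4 to day 6 in RDL and -1.93 for Bhmt in CDL. A fit of only the groups compared called Bhmt2 from day 4 to day 6 in RDL (-0.54), lost it between media at day 4 (1.04; 1 enzyme left), and left 4 pathway genes in either direction at day 6. The mean of all probe sets (0.89; 1 enzyme left) and the second probe set (0.74) also lost Bhmt2 at day 4, while the second probe set called it from day 4 to day 6 in RDL (-0.68). The replicate block called Ahcy from day 4 to day 6 in RDL (-0.21, adjusted p = 0.04) and Bhmt in CDL (-1.54, adjusted p = 0.0481), and changed no other enzyme call. For CDL day 4 with CDL day 6, the same-number correlations were 0.0718 to 0.139, not all past 0.1, so whether these samples were paired was not settled.

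Leaving out 1 array at a time gave 2 to 4 enzymes called from day 4 to day 6 in RDL (Bhmt2 -0.61 to -0.47, Ahcy -0.33 to -0.15) and Bhmt at -2.23 to -0.35 in CDL. Between media at day 4 it gave 0 to 3 enzymes (Gldc 0.78 to 0.98, Bhmt2 0.58 to 1.33, Dmgdh 0.39 to 0.92) and 0 to 2 pathway genes. At day 6 it gave 0 to 1 enzymes (Ahcy 0.075 to 0.25) and 7 to 15 pathway genes in either direction, and in the interaction 0 to 1 enzymes (Bhmt2 -1.37 to -0.62). The cause of these changes was not tested. Over all genes, calls between media at day 4 numbered 547 and fell to 341 without RDL day 4 replicate 2 and 353 without replicate 1. At day 6 they numbered 944, with 442 from the groups compared alone, 1512 without RDL day 6 replicate 1 and 1776 without both arrays; in the interaction 668 became 1216 and 1237. Signals near or below the array medians, as those of Bhmt, Bhmt2 and Dmgdh at day 6, limit what could be seen there.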
